A study of Mus musculus with 23 samples.

Results

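The 10 circadian clock repressors Per1, Per2, Per3, Cry1, Cry2, Nr1d1, Nr1d2, Ciart, Bhlhe40 and Bhlhe41 were followed in RNA-seq count data from whole mouse jejunum. They were taken by gene symbol, through their Ensembl identifiers, from a table of 55487 genes, and all 10 were found and passed the filter on low counts. The 23 libraries formed 10 groups of genotype and state, with 11 libraries from Cpa3Cre/+ mice and 12 from Cpa3+/+ mice. Cpa3Cre/+ mice carry a Cre recombinase allele at Cpa3, the gene of a mast cell carboxypeptidase, and the labels describe them as lacking mast cells; such mice are also known to have fewer basophils. Cpa3+/+ mice are the wild type. Naive mice were untreated. Immunized mice had been injected intraperitoneally with 25 µg ovalbumin and 2 mg alum on days 0 and 14. Challenged mice had had the same injections and then a choice of plain water or water with 20% egg white and 8% sugar, starting on day 20, for 1, 3 or 5 days. In the order naive, immunized, day 1, day 3 and day 5, Cpa3Cre/+ mice gave 2, 2, 2, 2 and 3 libraries and Cpa3+/+ mice gave 3, 2, 3, 2 and 2. Females gave 18 of the libraries and males 5. The male libraries were replicate 3 of the naive Cpa3+/+ group, replicate 2 of the naive, day 1 and day 3 Cpa3Cre/+ groups, and replicate 1 of the immunized Cpa3Cre/+ group. Immunized and challenged Cpa3+/+ libraries were all female. Counts of groups without overlap take no account of sex, so in immunized, day 1 and day 3 mice they set Cpa3Cre/+ groups of both sexes against female Cpa3+/+ groups. Ages, strain background and hour of sampling are not given in the sources used here, nor whether replicates were separate animals.

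The circadian clock is a feedback loop of transcription. The proteins BMAL1 (Arntl) and CLOCK bind E-box sequences and drive the PER, CRY and REV-ERB genes; PER and CRY proteins then enter the nucleus and block BMAL1-CLOCK, while the REV-ERB receptors (Nr1d1 and Nr1d2) repress Arntl through ROR elements. CIART (also called CHRONO) binds BMAL1 and represses it, and the DEC proteins (Bhlhe40 and Bhlhe41) compete for E-boxes. In mouse intestine, as in liver, the transcripts of these genes rise and fall daily, with Nr1d1 and Ciart ahead of Per1 and Per2 and with Cry1 late, and feeding times and glucocorticoid hormones can shift them. Per1 is a well-known direct target of the glucocorticoid receptor.

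Total counts per library ran from 5.48 to 19.34 M with a median of 13.81 M. Cpa3, the targeted gene, lay between 0.101 and 1.51 CPM (reads scaled to library size with TMM factors) in the Cpa3Cre/+ groups, against 0.827 to 22.1 CPM in the Cpa3+/+ groups, with overlapping ranges in naive mice. The summed level of 5 mast cell genes (Cpa3, Mcpt1, Mcpt2, Fcer1a and Kit) averaged 21.5 CPM in immunized Cpa3Cre/+ mice against 83.0 CPM in immunized Cpa3+/+ mice, and 67.3 against 482 CPM on day 3. In both of these states the genotypes did not overlap. They overlapped in naive mice (22.5 to 48.7 CPM in Cpa3Cre/+ against 41.3 to 53.9 CPM in Cpa3+/+), on day 1 (37.3 to 61.4 against 59.9 to 178 CPM) and on day 5 (85.1 to 123 against 121 to 593 CPM). A pair of libraries stood apart. Replicate 2 of the Cpa3+/+ day 1 group summed to 4390 CPM over 8 glucocorticoid-induced genes (Fkbp5, Tsc22d3, Zbtb16, Sgk1, Klf9, Dusp1, Errfi1 and Cdkn1a), while the other 22 libraries summed to between 247 and 817 CPM. Replicate 1 of the naive Cpa3Cre/+ group had the highest sums of smooth muscle genes, 5720 CPM, and of fat cell genes, 87.8 CPM, and the lowest sum of absorptive enterocyte genes, 5650 CPM. Where a result rests on one of these libraries, its value without that library is given too.

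Since BMAL1-CLOCK acts through E-boxes, promoter sequences are shown first. RefSeq promoters on GRCm38.p6, from 250 bases before to 50 bases after an annotated gene start, were matched for 8 of the 10 members; Per2 and Bhlhe40 were not matched. The 5 matched members whose group means ranged most widely are printed below, on the strand of the gene and 5′ to 3′, with the E-box CACGTG and the related E′-box CACGTT, in either orientation, in capitals. They lie at chr3:95882179-95882478 for Ciart, chr11:69098699-69098998 for Per1, chr4:151044616-151044915 for Per3, chr2:92434020-92434319 for Cry2 and chr11:98775328-98775627 for Nr1d1. Per1 is on the plus strand and the other 4 are on the minus strand.

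Ciart: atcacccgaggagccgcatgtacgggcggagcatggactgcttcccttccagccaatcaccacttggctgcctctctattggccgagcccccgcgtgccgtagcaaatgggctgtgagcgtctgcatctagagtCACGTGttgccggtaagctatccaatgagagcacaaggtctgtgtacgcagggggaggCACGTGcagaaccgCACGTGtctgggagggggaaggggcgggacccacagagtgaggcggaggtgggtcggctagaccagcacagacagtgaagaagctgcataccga
Per1: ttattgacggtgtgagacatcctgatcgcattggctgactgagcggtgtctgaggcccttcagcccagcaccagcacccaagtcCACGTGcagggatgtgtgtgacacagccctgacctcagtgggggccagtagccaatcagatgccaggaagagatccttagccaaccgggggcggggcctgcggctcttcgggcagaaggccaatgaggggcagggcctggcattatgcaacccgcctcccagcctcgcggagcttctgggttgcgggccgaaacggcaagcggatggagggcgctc
Per3: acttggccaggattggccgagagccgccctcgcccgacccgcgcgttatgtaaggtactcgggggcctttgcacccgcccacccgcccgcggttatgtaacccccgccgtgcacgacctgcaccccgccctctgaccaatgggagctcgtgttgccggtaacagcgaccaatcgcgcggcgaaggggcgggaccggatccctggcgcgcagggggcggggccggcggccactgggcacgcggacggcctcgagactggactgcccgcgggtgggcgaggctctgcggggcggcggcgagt
Cry2: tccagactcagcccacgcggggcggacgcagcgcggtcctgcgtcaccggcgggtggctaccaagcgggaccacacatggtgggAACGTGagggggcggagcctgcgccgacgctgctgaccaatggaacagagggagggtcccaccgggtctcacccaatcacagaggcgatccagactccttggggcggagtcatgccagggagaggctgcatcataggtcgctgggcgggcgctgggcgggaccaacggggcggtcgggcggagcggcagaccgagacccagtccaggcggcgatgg
Nr1d1: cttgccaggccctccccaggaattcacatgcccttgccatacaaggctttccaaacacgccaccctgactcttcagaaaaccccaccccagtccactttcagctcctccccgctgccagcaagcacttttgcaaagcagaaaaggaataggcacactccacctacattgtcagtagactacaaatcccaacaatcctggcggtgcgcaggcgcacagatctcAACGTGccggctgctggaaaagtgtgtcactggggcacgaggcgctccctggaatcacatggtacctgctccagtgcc

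Ciart, the member with the widest range of levels, held 3 copies of CACGTG in this window, starting at bases -116, -58 and -44 relative to the gene start. Of 32851 mouse promoters of the same length, 7.15% held at least 1 CACGTG and 0.0883% held 3 or more. Among the members CACGTG was found for Per1 (1 copy, at its upstream start), Cry1, Ciart and Bhlhe41, which is 4 of 8. CACGTT was found for Cry1, Cry2 and Nr1d1, against 4.68% of all promoters. AGGTCA, the core of ROR elements, was found for Per1 and Nr1d2, against 16.3% of all promoters, and TGACG, the core of cAMP response elements, for Per1, Cry1 and Cry2, against 20.8%. The Per3 window held none of these 4 motifs, and a second RefSeq start of Per1, further along the gene, held TGACG alone. All motifs were searched on both strands, and a match is a string of letters, not a measured binding site.

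The members differed in level by more than 2 orders of magnitude. Per kilobase of exon, Nr1d1 was highest, with a median over the 23 libraries of 46.9 CPM per kb, followed by Nr1d2 at 16.5 and Bhlhe40 at 15.1 CPM per kb. Next came Cry1 at 4.39, Per2 at 3.69, Per1 at 2.69, Cry2 at 2.67 and Per3 at 1.8 CPM per kb, with Ciart at 0.768 and Bhlhe41 at 0.225 CPM per kb last. Several neighbours in this order were not separated: Nr1d2 exceeded Bhlhe40 in 12 of 23 libraries, Cry1 exceeded Per2 in 12 and Per1 exceeded Cry2 in 13. Nr1d1 exceeded Nr1d2 in 22 of 23 libraries and Bhlhe40 exceeded Cry1 in all 23. Ranked instead by how much the 10 group means differed, Ciart led with a 35.1-fold range, then Per1 with 11.4-fold and Per3 with 5.91-fold. Per2 (4.85-fold), Cry2 (4.78-fold), Nr1d1 (3.83-fold) and Nr1d2 (3.49-fold) followed, and Bhlhe41 (2.82-fold), Cry1 (2.12-fold) and Bhlhe40 (2.08-fold) ranged least. For Ciart, Per1 and Cry2 the highest mean was that of the Cpa3+/+ day 1 group, whose replicate 2 held 55.0, 230 and 123 CPM. The next highest libraries of the study held 11.3, 62.2 and 28.2 CPM, so the sizes of these ranges rest largely on that replicate. The promoters printed above were chosen by the same ranges. The lowest group mean was in Cpa3+/+ day 5 mice for 8 of the 10 members, all but Cry1 and Bhlhe41. The share of all genes with their lowest mean in that group was not computed, so this count is not read as particular to the members. Of all genes, 24.2% were lower there than in immunized Cpa3+/+ mice without overlap.

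**Figure D1:**
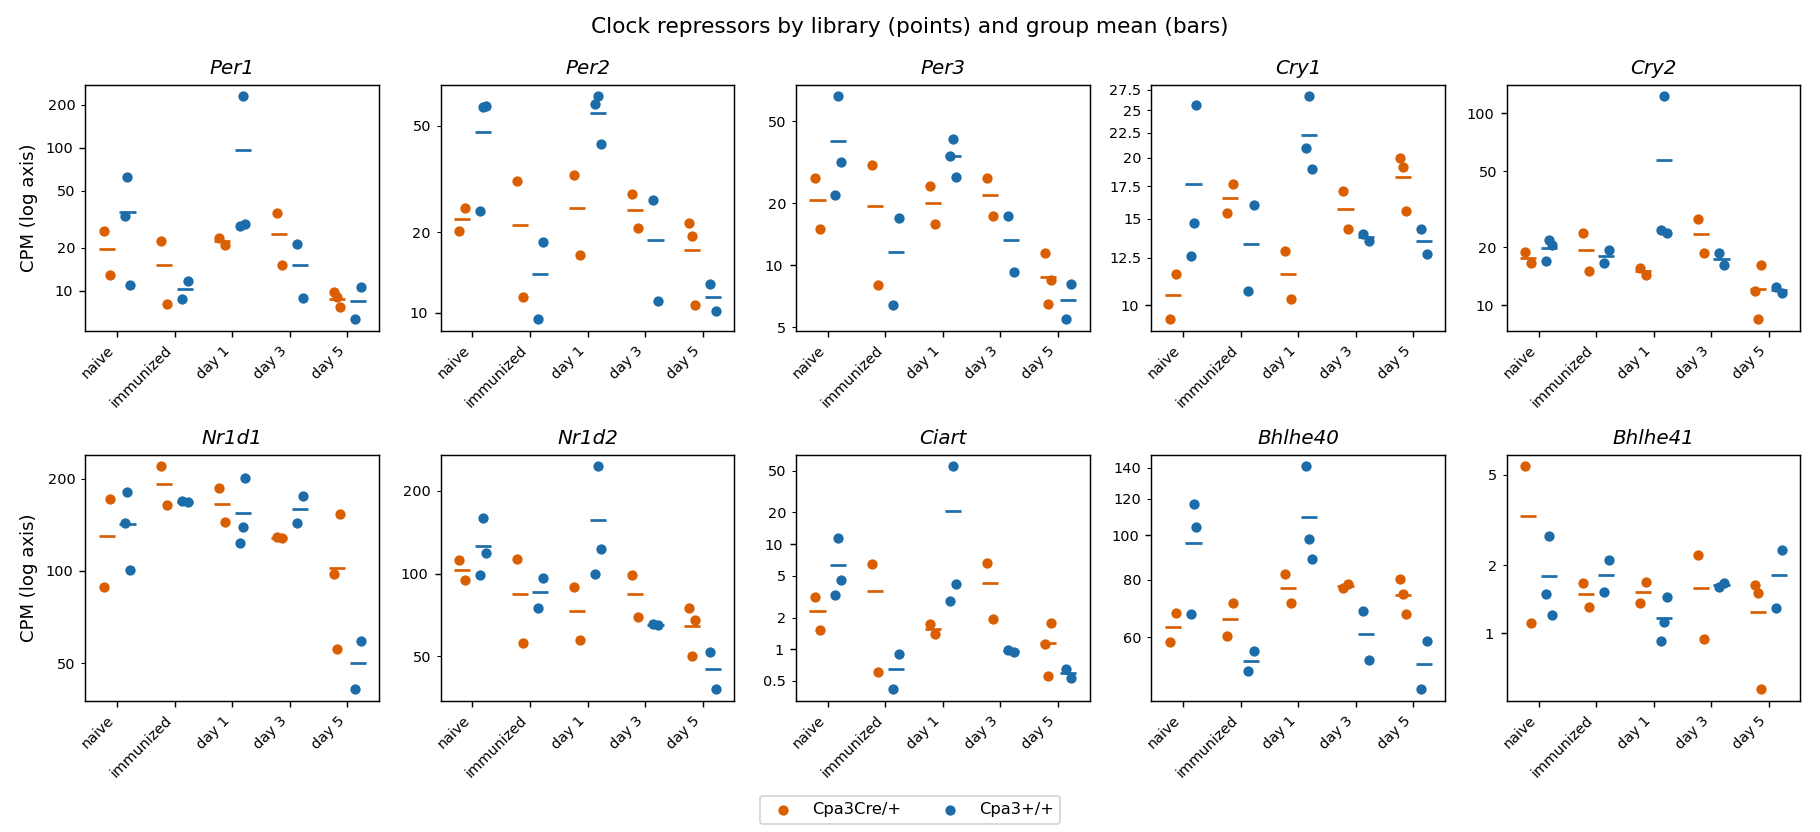
CPM of the 10 clock repressors (log axes) by state, with 1 point per library and a bar at each group mean; within a state Cpa3Cre/+ libraries are on the left and Cpa3+/+ libraries on the right, with 2 or 3 libraries a group. The Cpa3+/+ day 1 library at 230 CPM of Per1, 123 CPM of Cry2 and 55.0 CPM of Ciart lies above all others, and Nr1d1 is at 41.0 and 59.1 CPM in Cpa3+/+ day 5 mice.

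Period genes encode the limiting partners of the PER-CRY repressor complex. Positions are those of GENCODE M21 on GRCm38: Per1 lies at chr11:69095217-69109960, Per2 at chr1:91415982-91459324 and Per3 at chr4:151003652-151044665. Per1 read 26.1 and 12.8 CPM in the naive Cpa3Cre/+ libraries, against 33.4, 62.2 and 11 CPM in the naive Cpa3+/+ libraries. In immunized mice Per1 was 22.1 and 8.09 CPM in Cpa3Cre/+, against 8.77 and 11.6 CPM in Cpa3+/+. On day 1 it was 23.2 and 20.9 CPM in Cpa3Cre/+, against 28.3, 230 and 29.2 CPM in Cpa3+/+. All 3 Cpa3+/+ day 1 libraries were thus above both Cpa3Cre/+ day 1 libraries and above both immunized Cpa3+/+ libraries, and the next highest library of the study after replicate 2 had 62.2 CPM. On day 3 Per1 read 34.8 and 15.1 CPM in Cpa3Cre/+, against 21.2 and 8.86 CPM in Cpa3+/+. By day 5 it was at 9.75, 8.97 and 7.62 CPM in Cpa3Cre/+, against 6.28 and 10.6 CPM in Cpa3+/+. All 5 were below the median of the 23 libraries, 15.1 CPM, and the genotypes overlapped.

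Per2 stood at 20.2 and 24.7 CPM in naive Cpa3Cre/+ mice, against 24.1, 58.4 and 59.2 CPM in naive Cpa3+/+ mice. After immunization it was 31.0 and 11.5 CPM in Cpa3Cre/+, against 9.46 and 18.4 CPM in Cpa3+/+. On day 1 the values were 32.7 and 16.4 CPM in Cpa3Cre/+, against 60.3, 64.4 and 42.8 CPM in Cpa3+/+, with means of 24.5 ± 11.5 CPM (SD, n = 2) and 55.8 ± 11.4 CPM (SD, n = 3). The lowest Cpa3+/+ day 1 library exceeded both Cpa3Cre/+ day 1 libraries, and for Per2, unlike Per1, replicate 2 of that group was close to replicate 1. Per2 then read 27.7 and 20.7 CPM on day 3 in Cpa3Cre/+, against 26.3 and 11.1 CPM in Cpa3+/+. On day 5 it was 21.6, 19.4 and 10.7 CPM in Cpa3Cre/+, against 12.8 and 10.2 CPM in Cpa3+/+.

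Per3, a period gene that is dispensable for the central clock in mice, followed Per2. Naive values were 26.6 and 15.1 CPM in Cpa3Cre/+, against 22.0, 66.4 and 31.7 CPM in Cpa3+/+. Immunized values were 30.8 and 8.02 CPM in Cpa3Cre/+, against 6.42 and 16.9 CPM in Cpa3+/+. Both immunized Cpa3+/+ libraries were below all 3 naive Cpa3+/+ libraries, whereas the immunized Cpa3Cre/+ libraries lay on either side of the naive ones. On day 1 Per3 was 24.4 and 15.9 CPM in Cpa3Cre/+, against 34.1, 41.2 and 27.0 CPM in Cpa3+/+. Days 3 and 5 gave 26.6, 17.3, 11.5, 6.51 and 8.47 CPM in Cpa3Cre/+, against 17.4, 9.3, 5.47 and 8.08 CPM in Cpa3+/+, so that all 5 day 5 libraries were at 11.5 CPM or below.

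Cryptochromes are the main repressors of the PER-CRY complex, and Cry1 is the late gene of the cycle. Cry1 lies at chr10:85131700-85185064 and Cry2 at chr2:92403646-92434043. Cry1 ranged little, from 9.36 to 26.7 CPM over the 23 libraries. Its naive values were 9.36 and 11.6 CPM in Cpa3Cre/+, against 12.6, 14.7 and 25.6 CPM in Cpa3+/+, without overlap. Immunized mice had 15.4 and 17.7 CPM in Cpa3Cre/+, against 10.7 and 16.0 CPM in Cpa3+/+. Day 1 values were 12.9 and 10.3 CPM in Cpa3Cre/+, against 20.9, 26.7 and 19.0 CPM in Cpa3+/+. Both Cpa3Cre/+ day 1 libraries were below the immunized libraries of their genotype, and all 3 Cpa3+/+ day 1 libraries were above theirs. On day 3 Cry1 was 17.1 and 14.3 CPM in Cpa3Cre/+, against 14.0 and 13.5 CPM in Cpa3+/+, and on day 5 it was 20.0, 19.1 and 15.6 CPM in Cpa3Cre/+, against 14.3 and 12.7 CPM in Cpa3+/+. Cry1 was therefore the member whose day 5 values in Cpa3Cre/+ mice were all above those in Cpa3+/+ mice, together with Bhlhe40.

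Cry2 lay between 8.42 and 28.2 CPM in 22 libraries and reached 123 CPM in replicate 2 of the Cpa3+/+ day 1 group. The other day 1 values were 15.6 and 14.4 CPM in Cpa3Cre/+, against 24.6 and 23.8 CPM in Cpa3+/+. Naive values were 18.8 and 16.5 CPM in Cpa3Cre/+, against 16.9, 21.8 and 20.6 CPM in Cpa3+/+, and immunized values were 23.7 and 15.0 CPM in Cpa3Cre/+, against 16.6 and 19.4 CPM in Cpa3+/+. The genotypes overlapped in both states. On day 3 Cry2 was 28.2 and 18.7 CPM in Cpa3Cre/+, against 18.6 and 16.1 CPM in Cpa3+/+. On day 5 it was 11.8, 8.42 and 16.2 CPM in Cpa3Cre/+, against 12.4 and 11.6 CPM in Cpa3+/+.

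REV-ERB genes encode heme-binding nuclear receptors that repress Arntl and Cry1, and they were among the most abundant members. Nr1d1 lies at chr11:98767932-98775333 and Nr1d2 at chr14:18204054-18239127. Nr1d1 read 88.8 and 172 CPM in naive Cpa3Cre/+ mice, against 144, 181 and 101 CPM in naive Cpa3+/+ mice. Immunized mice had 220 and 164 CPM in Cpa3Cre/+, against 169 and 168 CPM in Cpa3+/+. Day 1 gave 187 and 145 CPM in Cpa3Cre/+, against 123, 139 and 201 CPM in Cpa3+/+, and day 3 gave 129 and 128 CPM in Cpa3Cre/+, against 143 and 176 CPM in Cpa3+/+. Unlike the PER genes, Nr1d1 did not separate the genotypes on day 1, and the library with high Per1 was at an ordinary 139 CPM. On day 5 Nr1d1 was 97.7, 55.4 and 154 CPM in Cpa3Cre/+, against 41.0 and 59.1 CPM in Cpa3+/+. All day 5 libraries of both genotypes were below the immunized libraries of their own genotype. Nr1d1 shares 263 exon bases with Thra, a thyroid hormone receptor gene on the opposite strand, and since the strand setting of the counting was not given, the reads of both genes in that overlap cannot be told apart.

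Nr1d2 read 112 and 95 CPM in naive Cpa3Cre/+ mice, against 99.2, 160 and 119 CPM in naive Cpa3+/+ mice. Immunized values were 113 and 56.1 CPM in Cpa3Cre/+, against 75.3 and 96.4 CPM in Cpa3+/+. Day 1 values were 89.2 and 57.2 CPM in Cpa3Cre/+, against 100, 246 and 123 CPM in Cpa3+/+. The day 1 genotypes did not overlap, and replicate 2 of the Cpa3+/+ group was again the highest library of all. On days 3 and 5 Nr1d2 was 98.6, 69.8, 75.2, 50.2 and 68.1 CPM in Cpa3Cre/+, against 65.6, 64.9, 51.7 and 37.9 CPM in Cpa3+/+.

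Ciart, at chr3:95878503-95882251, had few reads, from 6 to 590 per library, and the widest range. Its naive values were 3.12 and 1.51 CPM in Cpa3Cre/+, against 3.31, 11.3 and 4.55 CPM in Cpa3+/+, and its immunized values 6.48 and 0.611 CPM in Cpa3Cre/+, against 0.414 and 0.892 CPM in Cpa3+/+. On day 1 it was 1.74 and 1.40 CPM in Cpa3Cre/+, against 2.85, 55.0 and 4.19 CPM in Cpa3+/+. Both immunized Cpa3+/+ libraries were below every naive and every day 1 library of that genotype. The immunized Cpa3Cre/+ libraries differed from each other more than most groups did, and the higher, replicate 1, was male and the lower female. Day 3 gave 6.59 and 1.94 CPM in Cpa3Cre/+, against 0.972 and 0.944 CPM in Cpa3+/+. Day 5 gave 1.12, 0.556 and 1.79 CPM in Cpa3Cre/+, against 0.644 and 0.534 CPM in Cpa3+/+.

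The DEC genes encode basic helix-loop-helix repressors that also respond to feeding, hypoxia and cytokines. Bhlhe40 lies at chr6:108660629-108666925 and Bhlhe41 at chr6:145858243-145865558. Bhlhe40 read 58.6 and 67.9 CPM in naive Cpa3Cre/+ mice, against 67.3, 117 and 104 CPM in naive Cpa3+/+ mice, and after immunization 60.6 and 71.2 CPM in Cpa3Cre/+, against 50.8 and 56.0 CPM in Cpa3+/+. On day 1 it was 82.3 and 71.3 CPM in Cpa3Cre/+, against 141, 98.3 and 88.8 CPM in Cpa3+/+. Its highest library was replicate 1 of the Cpa3+/+ day 1 group, not replicate 2. Days 3 and 5 gave 76.7, 78.4, 80.4, 74.4 and 67.4 CPM in Cpa3Cre/+, against 68.5, 53.6, 46.3 and 58.9 CPM in Cpa3+/+. Bhlhe41 was barely detected, with 6 to 56 reads and 0.565 to 5.46 CPM, and its highest library was the naive Cpa3Cre/+ replicate 1 whose smooth muscle genes were highest; the next library had 2.70 CPM. The part of tissue make-up in that value was not tested.

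A joint test of any difference among the 10 groups asked whether the members varied between groups beyond the spread of replicates. None of the 10 passed an adjusted p of 0.05 in edgeR's quasi-likelihood test, which called 16 of 17236 genes, or 0.0928%. At an unadjusted p under 0.05 stood 9 of the 10 members, all but Bhlhe41, where 10.8% of all genes did. Ciart and Per2 shared the smallest edgeR adjusted p, 0.234, and ranked 106 and 139 by p among all genes. DESeq2's likelihood ratio test of the same model called 913 genes and among them 7 members, namely Per1, Per2, Per3, Cry2, Nr1d2, Ciart and Bhlhe40. The spread between replicates was wide for the steepest members: the biological coefficient of variation was 73.3% for Ciart and 55.4% for Per1, against a median of 27.1% over all genes, and 20.0% for Bhlhe40. No member differed between male and female libraries at an unadjusted p under 0.05. In whole tissue, fewer cells of a type and less RNA per cell cannot be told apart.

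Cpa3Cre/+ mice were compared with Cpa3+/+ mice to ask whether the lack of mast cells went with a different clock. Averaged over the 5 states it did not show: edgeR called none of the members and DESeq2 none, none had an unadjusted p under 0.05, where 1.12% of all genes did, and the median log2 fold change of the 10 was -0.03. Genes called over the whole table made up 0.029%. Within states the members differed most on day 1. There 8 of 10 were lower in both Cpa3Cre/+ libraries than in all 3 Cpa3+/+ libraries, the exceptions being Nr1d1 and Bhlhe41, while 9.56% of all genes were lower without overlap. Of these 8, 5 had an unadjusted p under 0.05, against 3.74% of genes in that direction: Ciart (log2 fold change -3.56 ± 1.23 SE), Cry2 (-1.91 ± 0.57), Per2 (-1.24 ± 0.50), Nr1d2 (-1.05 ± 0.39) and Cry1 (-1.0 ± 0.30). None passed adjustment over all genes in edgeR (adjusted p = 0.635 for each of the 5), nor in DESeq2, and edgeR called 0.0% of genes in each of the 5 states.

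Replicate 2 of the Cpa3+/+ day 1 group carried much of the size of these differences. Without it 2 members, Cry1 and Cry2, had an unadjusted p under 0.05, where 3.75% of genes did in either direction, against 7.39% with all libraries. Leaving out that library, the log2 fold change of Cpa3Cre/+ against Cpa3+/+ on day 1 was -1.01 for Ciart, -0.67 for Cry2 and -0.57 for Nr1d2, while Cry1 (-0.84) and Per2 (-1.12) moved little. Per1 was at -1.75 ± 0.86 with that library and at -0.01 ± 0.64 without it. In naive mice 2 members, Cry1 and Ciart, were lower in Cpa3Cre/+ without overlap, where 4.54% of genes were. Per2 (-1.11 ± 0.50), Cry1 (-0.77 ± 0.29) and Bhlhe40 (-0.61 ± 0.25) had unadjusted p-values under 0.05 there, where 1.22% of genes did in that direction; without the smooth muscle-rich library of the naive Cpa3Cre/+ group the values were -1.04, -0.68 and -0.48 and none of the 3 remained under that limit. Without replicate 2 of the naive Cpa3+/+ group 1 member was under it, and without replicate 3 none. In immunized mice no member was under it, where 0.951% of genes were, and Bhlhe40 alone was higher without overlap, where 24.9% of all genes were. On day 3 also none was, where 1.55% of genes were, and 5 members (Cry1, Cry2, Nr1d2, Ciart and Bhlhe40) were higher in both Cpa3Cre/+ libraries, where 17.6% of genes were, and Nr1d1 was lower, where 19.4% were. On day 5 Cry1 and Bhlhe40 were higher without overlap, where 15.2% of genes were, and Nr1d1 alone was under an unadjusted p of 0.05, where 5.69% of genes were in that direction. Its log2 fold change was 1.03 ± 0.39, with an edgeR adjusted p of 0.524, and it was not under that limit without replicate 1 of the Cpa3+/+ or replicate 3 of the Cpa3Cre/+ day 5 group. EdgeR and DESeq2 called no member in any of these states.

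Immunized mice were set against naive mice within each genotype. No member passed adjustment in edgeR in either genotype. Per2, Per3, Nr1d2, Ciart and Bhlhe40 were lower in both immunized than in all 3 naive Cpa3+/+ libraries, where 7.29% of all genes were. Unadjusted p-values under 0.05 were found for Ciart (-3.39 ± 1.27), Per1 (-1.90 ± 0.82), Per3 (-1.85 ± 0.58), Per2 (-1.70 ± 0.52) and Bhlhe40 (-0.85 ± 0.25), where 0.783% of genes had one in that direction. Per1 overlapped, with 1 of the immunized libraries at 11.6 CPM and 1 of the naive libraries at 11 CPM. The edgeR adjusted p was 1 for each of the 5 and edgeR called 0.0% of genes, and DESeq2 called no member. Without replicate 1 of the immunized Cpa3+/+ group 1 member was under the unadjusted limit, and without replicate 2 of the naive Cpa3+/+ group 2 were. In Cpa3Cre/+ mice Cry1 alone was higher without overlap, where 16.2% of genes were, by 0.67 ± 0.31 with an edgeR adjusted p of 0.371. Cry1 was also the 1 member with an unadjusted p under 0.05, where 4.5% of genes had one in that direction and 13.1% in either. Without the smooth muscle-rich naive library it was at 0.58 ± 0.41 and no longer under that limit, nor was it without replicate 2 of the naive or replicate 2 of the immunized group. Over both genotypes Per3 (-0.93 ± 0.41), Per2 (-0.90 ± 0.36) and Bhlhe40 (-0.39 ± 0.18) had an unadjusted p under 0.05, where 7.01% of genes did in that direction, at edgeR adjusted p-values of 0.399 to 0.442; no member had one without replicate 2 of the naive Cpa3+/+, replicate 1 of the immunized Cpa3+/+ or replicate 2 of the immunized Cpa3Cre/+ group, and Bhlhe40 had one in 4 of the 23 fits that each left out 1 library. The difference of the immunization response between the genotypes was itself tested: 5 members had an unadjusted p under 0.05, all higher in Cpa3Cre/+, where 3.54% of all genes had one, at an edgeR adjusted p of 0.997 each and with no member called by DESeq2. They were Ciart (4.15 ± 1.80), Per3 (1.82 ± 0.85), Per2 (1.59 ± 0.75), Cry1 (1.02 ± 0.42) and Bhlhe40 (0.91 ± 0.36). That count was between 0 and 5 when each library was left out in turn, and 0 without replicate 1 of the immunized Cpa3+/+ group; of those 23 fits Per2 was under the limit in 8 and Per3 in 10.

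Day 1 of the challenge was set against the immunized state. In Cpa3+/+ mice 8 of 10 members were higher in all 3 day 1 libraries than in both immunized libraries, where 13.2% of all genes were, and Bhlhe41 was lower, where 13.0% were. The same 8 had an unadjusted p under 0.05, where 3.48% of genes did in that direction. The largest log2 fold changes were those of Ciart (4.98 ± 1.31), Per1 (3.23 ± 0.87), Per2 (2.00 ± 0.52), Cry2 (1.67 ± 0.54) and Per3 (1.55 ± 0.57). Bhlhe40 (1.03 ± 0.25), Nr1d2 (0.87 ± 0.37) and Cry1 (0.74 ± 0.28) followed. The edgeR adjusted p was 0.847 for each of the 8 and edgeR called 0.0% of genes, while DESeq2 called 9 genes and among them Ciart (adjusted p = 0.0345, with 6.57e-17 to 1 over all alternatives).

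In Cpa3Cre/+ mice edgeR and DESeq2 called no member on day 1, and none had an unadjusted p under 0.05, where 2.12% of genes did. Bhlhe40 was higher there without overlap, where 23.1% of genes were, and Cry1 lower, where 21.1% were. The difference of the day 1 response between genotypes had an unadjusted p under 0.05 for 6 members, all lower in Cpa3Cre/+, where 4.07% of all genes had one. These were Ciart (-6.28 ± 1.76), Per1 (-2.84 ± 1.17), Cry2 (-2.04 ± 0.77), Per2 (-1.73 ± 0.73), Cry1 (-1.25 ± 0.42) and Bhlhe40 (-0.81 ± 0.36), at an edgeR adjusted p of 0.845 each, and DESeq2 called none. Without replicate 1 of the immunized Cpa3+/+ group 1 member was under the limit, and without replicate 1 of the immunized or replicate 2 of the day 1 Cpa3Cre/+ group 2 were. Bhlhe40 was under it in 9 of the 23 fits that each left out 1 library. The immunization and day 1 comparisons share the immunized libraries, and the genotype and day 1 comparisons share the day 1 libraries, so these results are not independent of each other. Without replicate 2 of the Cpa3+/+ day 1 group, 5 of the 8 members kept an unadjusted p under 0.05 in Cpa3+/+ day 1 against immunized, with log2 fold changes of 2.40 for Ciart, 1.85 for Per2, 1.46 for Per1, 1.36 for Per3 and 1.06 for Bhlhe40. Cry1 was then at 0.54, Cry2 at 0.39 and Nr1d2 at 0.35, and 2.06% of genes were under the limit in either direction, against 5.37% with all libraries. Leaving out replicate 1 of the immunized Cpa3+/+ group also gave 5 members. For the difference between genotypes 3 members stayed under the limit without the day 1 library, with Ciart at -3.67, Cry1 at -1.03 and Bhlhe40 at -0.81, while Per1 was at -1.04, Cry2 at -0.73 and Per2 at -1.55.

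**Figure D2:**
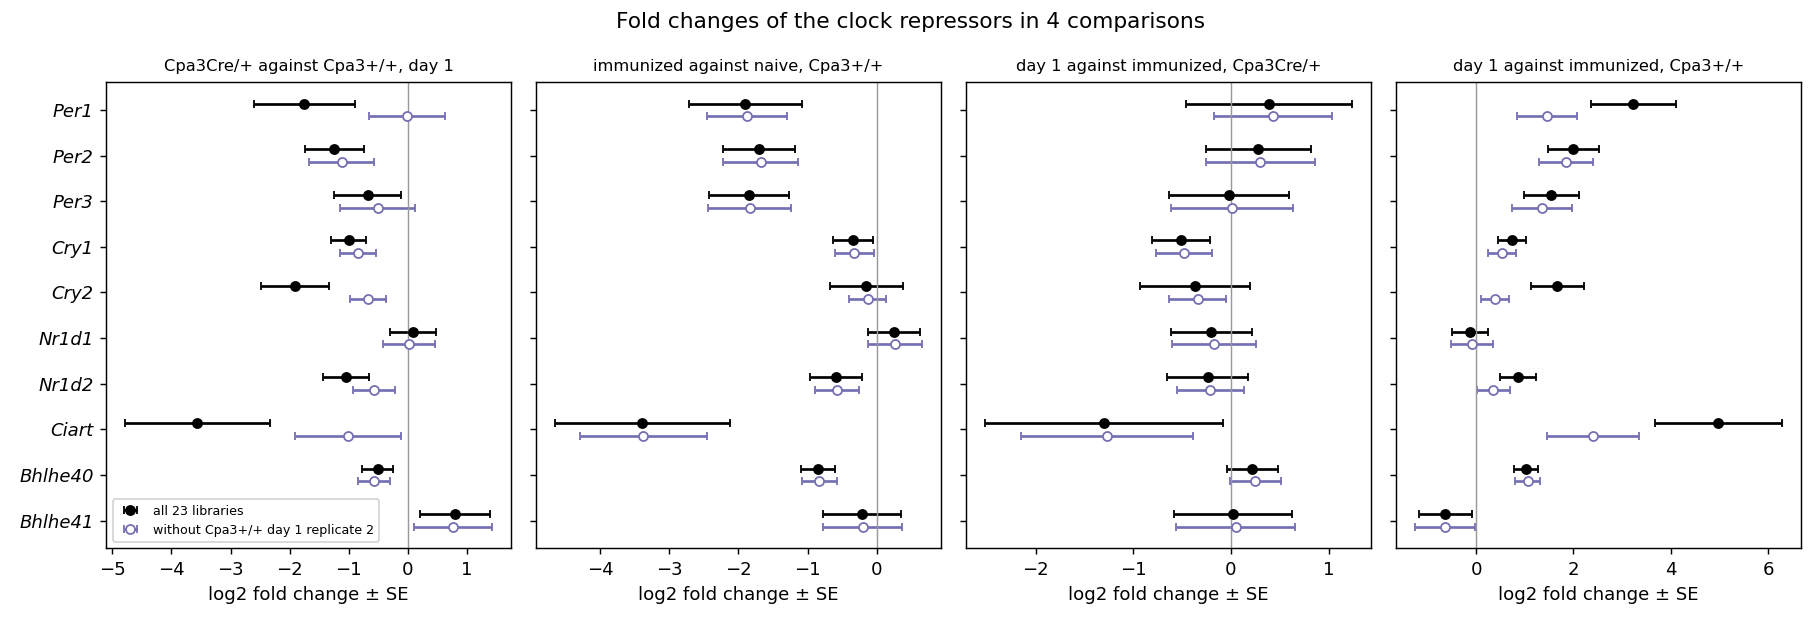
Log2 fold changes with standard errors from edgeR for the 10 members in 4 comparisons, for all 23 libraries (filled) and without replicate 2 of the Cpa3+/+ day 1 group (open). Ciart in Cpa3+/+ day 1 against immunized moves from 4.98 to 2.40 when that library is left out. The immunized against naive values hardly move, since that library is in neither of those groups.

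Days 3 and 5 of the challenge were also set against the immunized state. On day 3 edgeR and DESeq2 called no member, and none had an unadjusted p under 0.05 against the immunized state in either genotype, where 4.31% of genes did in Cpa3Cre/+ and 4.93% in Cpa3+/+. Without overlap, Bhlhe40 was higher and Nr1d1 lower on day 3 in Cpa3Cre/+ mice, where 25.9% and 26.0% of genes were, and Ciart was higher and Nr1d2 lower in Cpa3+/+ mice, where 33.2% and 25.6% were. On day 5 Nr1d1 was lower than in immunized mice by a log2 fold change of -0.89 ± 0.40 in Cpa3Cre/+ mice and of -1.75 ± 0.42 in Cpa3+/+ mice, with edgeR adjusted p-values of 0.481 and 0.237. Nr1d2 was at -0.46 ± 0.40 in Cpa3Cre/+ mice and at -0.94 ± 0.40 in Cpa3+/+ mice. Nr1d1 in both genotypes and Nr1d2 in Cpa3+/+ mice were all the members with an unadjusted p under 0.05, which 5.37% of genes had in that direction in Cpa3Cre/+ mice and 4.79% in Cpa3+/+ mice. In Cpa3Cre/+ mice Ciart (-1.90 ± 1.27), Per1 (-1.30 ± 0.88) and Per3 (-1.29 ± 0.62) had larger fold changes than Nr1d1 but larger errors. Nr1d1 in Cpa3Cre/+ mice was under that limit in 14 of the 23 fits that each left out 1 library. It was not under it without either immunized Cpa3Cre/+ library, either day 1 Cpa3Cre/+ library, replicate 1 of the day 3 Cpa3Cre/+ group, replicate 1 or 2 of the day 5 Cpa3Cre/+ group, replicate 3 of the naive Cpa3+/+ group or replicate 2 of the Cpa3+/+ day 1 group (unadjusted p = 0.0501 in edgeR without the last). Nr1d2 in Cpa3+/+ mice was not under it without replicate 2 of the immunized or replicate 2 of the day 5 Cpa3+/+ group, and Nr1d1 in Cpa3+/+ mice was under it in all 23 fits. EdgeR called no member, and 0.0348% of genes in Cpa3Cre/+ and 0.0% in Cpa3+/+ mice. In Cpa3+/+ mice 3 members (Cry2, Nr1d1 and Nr1d2) were lower on day 5 without overlap, where 24.2% of all genes were, and in Cpa3Cre/+ mice Nr1d1 alone, where 12.9% were. DESeq2 called Nr1d1 in Cpa3+/+ day 5 against immunized (adjusted p = 0.0122, with 8.99e-05 to 1 over all alternatives), among 139 genes. The difference of the day 5 response between genotypes had an unadjusted p under 0.05 for none of the members, where 1.28% of genes had one, and likewise on day 3, where 1.42% did. In the Cpa3+/+ day 5 group the summed enterocyte genes were at 13900 and 16200 CPM, against 32200 and 30000 CPM in immunized Cpa3+/+ mice, and their part in the lower Nr1d1 was not tested.

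Replicate 2 of the Cpa3+/+ day 1 group held the highest value of Per1, Per2, Cry1, Cry2, Nr1d2 and Ciart in the study, but not of Per3, Nr1d1, Bhlhe40 or Bhlhe41. Several glucocorticoid-induced genes were far outside the range of the other 22 libraries in it. Fkbp5, a co-chaperone of the glucocorticoid receptor, was at 951 CPM there, against 9.39 to 139 CPM in the others. Zbtb16, a zinc finger regulator, was at 155 CPM, against 0.471 to 11.1 CPM. Sgk1, a kinase that raises sodium uptake, was at 1870 CPM, against 24.5 to 331 CPM. Pdk4, which shuts down glucose oxidation in fasting, was at 1070 CPM, against 18.7 to 123 CPM. It is not among the 8 listed glucocorticoid-induced genes but on the list of clock-controlled outputs counted below. All 8 listed glucocorticoid-induced genes were highest in this library. Over the fitted groups, 7 of the 8 had an unadjusted p under 0.05 on day 1, lower in Cpa3Cre/+ than in Cpa3+/+, where 3.74% of all genes had one in that direction. The same number was higher in Cpa3+/+ day 1 than in immunized mice, where 3.48% were, and edgeR called none of them. Without replicate 2 of the Cpa3+/+ day 1 group 5 of the 8 were under that limit in each of the 2 comparisons, where 1.14% and 0.783% of all genes were. The part of a glucocorticoid response in the clock values of this library was not tested. Per2 and Bhlhe40 in the other Cpa3+/+ day 1 libraries, 60.3 and 42.8 CPM and 141 and 88.8 CPM, lay above the immunized libraries of both genotypes, which reached 31.0 CPM of Per2 and 71.2 CPM of Bhlhe40. Per1, Cry1 and Cry2, down to 28.3, 19.0 and 23.8 CPM, also did, as immunized libraries reached 22.1, 17.7 and 23.7 CPM. Per3, Nr1d2 and Ciart, down to 27.0, 100 and 2.85 CPM, did not, as immunized libraries reached 30.8, 113 and 6.48 CPM. These day 1 libraries also summed to at least 645 CPM over the glucocorticoid-induced genes, against 341 to 410 CPM in immunized Cpa3+/+ and 350 to 416 CPM in immunized Cpa3Cre/+ mice. The part of that in their clock values was not tested either.

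**Figure D3:**
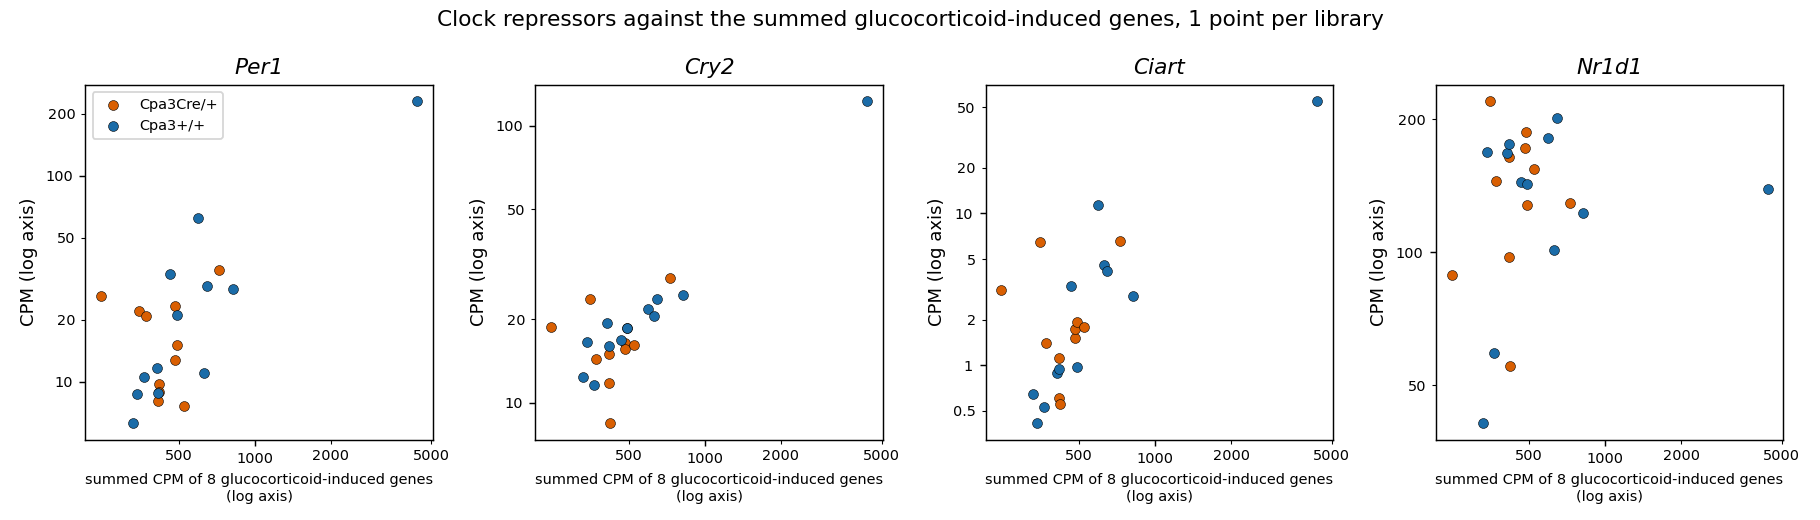
CPM of Per1, Cry2, Ciart and Nr1d1 against the summed CPM of 8 glucocorticoid-induced genes, both on log axes, with 1 point per library. Replicate 2 of the Cpa3+/+ day 1 group, at 4390 CPM, is far to the right and highest for Per1, Cry2 and Ciart, but not for Nr1d1.

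The order of the members' peaks was used to place the libraries on a cycle, as a description only. Each library got a horizontal value, the mean of Nr1d1 and Ciart minus Cry1, and a vertical value, the mean of Per1 and Per2, each in SD units of log2(CPM + 0.5) over the 23 libraries. The angle of the point then runs from Nr1d1 and Ciart high relative to Cry1, at 0 degrees, through Per1 and Per2 high, at 90 degrees, and Cry1 high relative to Nr1d1 and Ciart, at 180, to Per1 and Per2 low, at 270. Since the horizontal value is a difference, an angle does not say which of its genes is high. Replicate 1 of the naive Cpa3Cre/+ group, at 4.42 degrees, had Nr1d1 at -0.86, Ciart at 0.30 and Cry1 at -1.79 SD units, and replicate 1 of the Cpa3+/+ day 5 group, at 216 degrees, had Cry1 at -0.24 and Nr1d1 at -2.64. The sectors centred on these angles held 6, 5, 5 and 7 libraries. The first sector held both naive and both day 1 Cpa3Cre/+ libraries, replicate 1 of the immunized Cpa3Cre/+ group and replicate 1 of the naive Cpa3+/+ group. All 3 Cpa3+/+ day 1 libraries lay between 90 and 136 degrees, and all 5 day 5 libraries lay between 194 and 272 degrees. The immunized Cpa3+/+ libraries were at 312 and 246 degrees and the immunized Cpa3Cre/+ libraries at 18.9 and 235 degrees.

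Replicates of 1 group did not always lie together. The median angle between replicates of a group was 56.1 degrees, against 96.2 degrees between libraries of different groups. Replicates were up to 144 degrees apart in immunized Cpa3Cre/+ mice, 143 in naive Cpa3+/+ mice, 127 in day 3 Cpa3Cre/+ mice and 120 in day 3 Cpa3+/+ mice, and as close as 11.6 degrees in naive Cpa3Cre/+ and 18.0 degrees in day 5 Cpa3+/+ mice. For replicate 1 of the Cpa3+/+ day 3 group and replicate 2 of the Cpa3Cre/+ day 3 group the point lay near the centre, 0.25 and 0.27 SD units away, so that their angles mean little. Genes not used for the angle followed it in part. Arntl, which runs opposite to Nr1d1 and Per genes in a rhythmic tissue, was highest at 58.6 CPM in replicate 2 of the immunized Cpa3Cre/+ group, at 235 degrees, and at 51.8 CPM in replicate 1 of the Cpa3+/+ day 5 group, at 216 degrees; it was lowest, at 12.4 CPM, in replicate 2 of the naive Cpa3+/+ group, at 49.6 degrees. Dbp, an output gene that peaks with the E-box drive, was lowest at 4.91 CPM in that same day 5 library. Other values did not follow the order. The immunized Cpa3Cre/+ library with the highest Arntl had Nr1d1 at 0.56 SD units, above the mean. Clock was at 1.85 SD units in replicate 1 and -1.13 in replicate 2 of the Cpa3+/+ day 5 group, at 216 and 234 degrees. The sources used here give no time of day, so sampling hour, feeding and treatment cannot be told apart in this order.

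**Figure D4:**
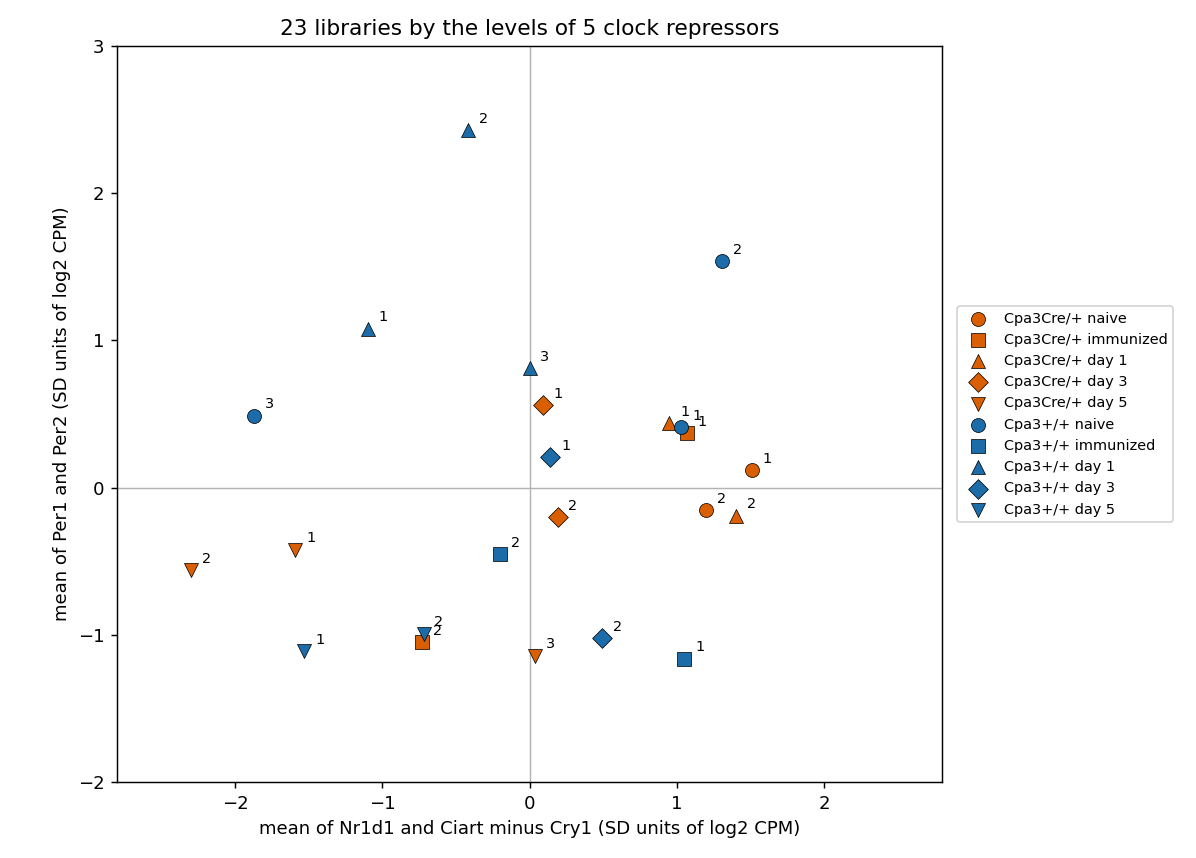
The 23 libraries by the mean of Per1 and Per2 (vertical axis) and the mean of Nr1d1 and Ciart minus Cry1 (horizontal axis), both in SD units of log2 CPM, with colours for genotype, symbols for state and replicate numbers beside the points. The Cpa3+/+ day 1 libraries lie in the upper part and the day 5 libraries of both genotypes in the lower part, while the 2 immunized Cpa3Cre/+ libraries lie far apart.

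Across the 23 libraries the period genes varied together. Of 8 relations computed between members, or between a member and Arntl, 3 were strong: Per2 with Per3 (Pearson r = 0.88, Spearman rho = 0.89), Per1 with Per3 (r = 0.81, rho = 0.87) and Per1 with Per2 (r = 0.73, rho = 0.77). Their permutation p-values for r were 1e-05, 1e-05 and 4e-05, of which 1e-05 is the smallest that 100000 permutations can give, and 4e-05, 4e-05 and 0.00011 after adjustment over the 8. Without the 2 libraries farthest from the median r was 0.87, 0.84 and 0.63, and for deviations from the group means it was 0.75, 0.61 and 0.33. The other paralog pairs were looser. Nr1d1 with Nr1d2 gave r = 0.47 (permutation p = 0.024, adjusted 0.048) but rho = 0.35 (p = 0.1, adjusted 0.19), and r = 0.31 without the 2 farthest libraries, so the relation rests on those. Cry1 with Cry2 gave r = 0.45 and rho = 0.33 (permutation p = 0.033 and 0.12, adjusted 0.053 and 0.19), and 0.08 without the 2 farthest, among them replicate 2 of the Cpa3+/+ day 1 group. Bhlhe40 with Bhlhe41 gave r = -0.23 and rho = -0.29, Nr1d1 with Arntl r = -0.39 and rho = -0.24, and Cry1 with Arntl r = -0.08 and rho = -0.10, with permutation p-values for r of 0.29, 0.063 and 0.7 and for rho of 0.18, 0.26 and 0.66. These 3 had adjusted p-values between 0.084 and 0.7 for r and between 0.23 and 0.66 for rho. The libraries share groups and differ in depth, so these are relations among the samples at hand.

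Among 13357 non-member genes with a mean of at least 1 CPM, those most like each member over the 23 libraries were mostly clock outputs for one set of members and other genes for the rest. Tef, a PAR bZIP factor driven by E-boxes, was the closest gene to Per3 (Spearman rho = 0.97), Nr1d2 (0.93), Ciart (0.92), Cry2 (0.88) and Per1 (0.85), and the second closest to Per2 (0.87). Hlf and Dbp, of the same family, came next for Per3 (0.91 and 0.90) and Ciart (0.89 and 0.87). For Cry1 the closest genes were Adss, Fosl2 and Mark3 (0.89, 0.89 and 0.87) and for Nr1d1 they were Zswim4, Kdm6b and Prag1 (0.86, 0.85 and 0.84). Bhlhe40 was closest to Noct, the gene of nocturnin (0.83), and Bhlhe41 to Man1c1 (0.82). These rho values were picked as the highest of many and are a description with no test.

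The rest of the clock was counted from gene lists. No list gene was called by edgeR in any of the 20 comparisons. In Cpa3+/+ immunized against naive mice all 4 of Dbp, Tef, Hlf and Nfil3 had an unadjusted p under 0.05, where 1.69% of all genes did: Hlf was lower by -2.19 ± 0.50, Dbp by -1.61 ± 0.72 and Tef by -1.33 ± 0.53, and Nfil3, a repressor of the same sites, was higher by 1.43 ± 0.46. In Cpa3+/+ day 1 against immunized mice Hlf (2.04 ± 0.49) and Tef (1.82 ± 0.53) had one, both higher, where 3.48% of all genes did in that direction. Without replicate 2 of the Cpa3+/+ day 1 group they were at 1.80 ± 0.52 and 1.16 ± 0.49. Arntl, the activator, had an unadjusted p under 0.05 in Cpa3+/+ mice in the direction opposite to the PER genes, at 0.97 ± 0.38 in immunized against naive and -0.85 ± 0.36 in day 1 against immunized (-0.90 ± 0.42 without that library). In these comparisons 1.69% and 5.37% of all genes had one in either direction. In Cpa3Cre/+ mice mean Arntl was 19.5 CPM naive and 38.6 CPM immunized, with the immunized libraries at 18.6 and 58.6 CPM. Without replicate 2 of the Cpa3+/+ day 1 group its log2 fold change there was 0.98 ± 0.43 (edgeR unadjusted p = 0.0356), against 1.0 ± 0.39 in Cpa3+/+ mice. Leaving out the smooth muscle-rich naive library gave 0.91 in Cpa3Cre/+ mice. Of 6 tested clock activators and ROR receptors 2 had an unadjusted p under 0.05 in Cpa3Cre/+ mice, both higher, where 13.1% of all genes had one. In Cpa3+/+ mice 1 did, where 1.69% did. Mean Nfil3 in Cpa3Cre/+ mice was 5.12 CPM naive and 16.6 CPM immunized, higher without overlap, where 16.2% of all genes were. Its log2 fold change was 1.73 ± 0.41 without replicate 2 of the Cpa3+/+ day 1 group and 1.38 without the smooth muscle-rich naive library. Per1, Per2 and Per3 had log2 fold changes of -0.11, -0.11 and -0.02 between these Cpa3Cre/+ states. The lists of clock kinases and of clock-controlled outputs share Usp2, at 160 CPM in replicate 2 of the Cpa3+/+ day 1 group and 18.1 to 84.5 CPM in the other 22 libraries. Pdk4, also a clock-controlled output, was at 1070 CPM in that replicate and 18.7 to 123 CPM in the other 22. Of 9 tested clock kinases, ligases and partners, 2 were lower and none higher in Cpa3Cre/+ than Cpa3+/+ mice on day 1 at that limit, and of 8 tested clock-controlled outputs 4 were lower and none higher, where 3.74% of all genes were lower. Without replicate 2 of the Cpa3+/+ day 1 group these counts were 0 of 9 and 1 of 8, where 1.14% of all genes were lower, and without replicate 1 of the naive Cpa3Cre/+ group they were 1 and 4. Of 8 immediate early genes, 2 were lower on day 5 than in immunized mice at that limit in Cpa3Cre/+, where 5.37% of all genes were, and 3 in Cpa3+/+, where 4.79% were.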

How the data were processed

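Whole jejunum without fat and Peyer's patches was sequenced as 23 stranded RNA-seq libraries. The authors deposited 1 table of raw read counts per Ensembl gene; STAR, featureCounts and Subread 1.5.1 are named in the submitters' processing notes, with mm10/GRCm38. The STAR version, annotation release and strand setting of the counting are not given in the sources used here. Symbols came from GENCODE M21 for 55227 of 55487 genes. The 10 members and all gene lists were chosen with earlier results of these data known.

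Groups came from the sample labels. Genes passing filterByExpr (17236) were fitted in 1 model with edgeR 4.0.16 in R 4.3.3: TMM factors, 10 group means, sex as a covariate, robust quasi-likelihood F tests (two-sided, 12 residual degrees of freedom) and Benjamini-Hochberg adjustment over all genes at 0.05. The common biological coefficient of variation was 28.6%. SE is the log2 fold change divided by the square root of F. p-values measure the spread between libraries, which may be technical. With 5.48 to 19.34 M counts per library, precision was lowest for Ciart and Bhlhe41, with as few as 6 reads. CPM are TMM-scaled, and logs used a pseudocount of 0.5. The lowest chi-square per degree of freedom between replicates was 12.5, so no replicates were counted as 1.

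All members were named in every comparison, and other genes only where a result turned on them. For each member the 3 most alike genes were ranked by Spearman rho. Alternatives were DESeq2 1.42.0, its size factors, total-count scaling, no low-count filter, no sex covariate, female libraries only, a replicate block and leaving out each library. A filter of 50 counts in all and leaving out both libraries that stood apart were added after seeing the data. The edgeR code was tested on simulated data. RefSeq promoters covered 8 members.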

Additional observations from a re-analysis of the deposited data

How the results depend on the processing

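EdgeR called 0 to 0 members in each of the 20 comparisons when each library was left out in turn, 0 with the replicate block, and 0 with DESeq2 size factors, without the sex covariate, with at least 50 counts in all or without both libraries that stood apart. With no filter on low counts (32067 genes) it called 8 members in the joint test; for Cpa3Cre/+ against Cpa3+/+ 1 in naive mice, 1 in immunized mice, 4 on day 1 and 1 on day 3; for immunized against naive 4 over both genotypes and 4 in Cpa3+/+; for day 1 against immunized 5 in Cpa3+/+; for day 5 against immunized 3 in Cpa3Cre/+ and 1 in Cpa3+/+; and for the difference between genotypes 3 in the immunization and 4 in the day 1 response. In that fit all 32067 genes were given 1 shared spread, against none of 17236 otherwise. DESeq2 called 7 members in the joint test (913 genes, against 16 in edgeR and 2519 unfiltered), and 1 each in day 1 against immunized and day 5 against immunized in Cpa3+/+. Female libraries alone gave 1, Per3 in immunized against naive over both genotypes (log2 fold change -1.80, edgeR adjusted p = 0.0441, with 0.00683 to 1 over all alternatives); the cause was not tested. None of the 40 member values with an unadjusted p under 0.05 changed sign under any of 31 alternatives. Of 100 group means, 3 moved by 1 SD or more with DESeq2 size factors and 9 with total counts, which shifted log2 levels by -0.442 to 0.383. The r of Cry1 with Cry2 was 0.46 with a pseudocount of 2 and then passed adjustment; without the 2 libraries farthest from the median, Nr1d1 with Nr1d2 was at 0.31 and no longer passed, and Cry1 with Arntl changed sign to 0.1. Library numbers did not pair samples: deviations of 93 same-numbered pairs correlated at -0.36 to 0.6, 19 of them over 0.1, and 9 of 23 libraries correlated best with their own number. Low reads limit Ciart and Bhlhe41.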
